A study of Homo sapiens with 12 samples.

Results

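Urothelium, the lining of the bladder, is built from basal cells that mature through intermediate cells into luminal umbrella cells, and a small set of transcription factors carries that programme. PPARG is a ligand-activated nuclear receptor that binds DNA with a retinoid X receptor and works with the zinc-finger factor GATA3 and the forkhead pioneer factor FOXA1 on luminal genes, while GRHL3, ELF3, KLF5 and KLF4 serve epithelial differentiation and barrier formation. TP63, TFAP2A and SOX2 are associated with the basal, squamous or stem-like side. These 10 genes were followed in RNA sequencing of RT4, an established human bladder cancer line of papillary, luminal character. They were chosen by name from the known biology of the tissue, with earlier results of these data known. Each symbol matched 1 Ensembl identifier in the overexpression table of 61860 genes and in the resistance table of 62700 genes, and 10 of 10 passed the filter on low counts in both.

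The overexpression experiment compared 3 libraries of RT4 cells given an empty vector (Flag_EV) with 3 libraries of cells that received an expression plasmid coding for ITGB4, the integrin beta 4 subunit, with a Flag tag, all grown in a McCoy-type medium. The resistance experiment compared 3 libraries of parental RT4 with 3 libraries of cisplatin-resistant RT4, both labelled wild type and grown in MEM. Its labels also give PBS to the parental cells and cisplatin, a DNA-crosslinking platinum drug, to the resistant ones, so being a resistant line and being exposed to the drug cannot be told apart. No dose, time, passage or number of clones was given, and for the plasmid no promoter or transfected fraction. In both groups of the overexpression experiment 1 label field reads ITGB5 for the second library and ITGB6 for the third, although every title names ITGB4.

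Overexpression libraries held 22701466 to 33352045 counts each and resistance libraries 31824582 to 38199946. Values are CPM, counts scaled to a common library size with TMM factors, given as mean ± SD with n = 3 per group. ITGB4 stood at 869 ± 10.97 CPM with vector and 1427 ± 53.6 CPM with plasmid. All 9 urothelial and epithelial markers looked at, among them EPCAM, KRT7, KRT18, UPK1B and UPK2, had a mean of at least 1 CPM in every group, and their summed level ran from 4621 to 4803 CPM with vector, 6317 to 6753 with plasmid, 6689 to 6777 in parental and 7280.1 to 8473 in resistant libraries. Most of that sum came from KRT7, KRT8, KRT18 and KRT19. Of the 9 markers, 5 were called higher and 3 lower with plasmid, by the rule given below. In resistant cells 5 were called higher and 2 lower. Of all genes tested 36.5% were called higher and 35.7% lower with plasmid, and 26.8% and 27.7% in resistant cells. EPCAM fell from 248 to 211 CPM with plasmid, and UPK1B fell from 70.3 to 28.7 CPM in resistant cells. Markers of immune cells summed to at most 1.01 CPM and those of smooth muscle to at most 0.0888 CPM in any library. Endothelial markers summed to at most 2.51 CPM, nearly all of it VWF, which stood at 2.06 CPM with vector and 1.38 with plasmid (called lower) and reached 2.30 CPM in resistant replicate 3, while KDR had 0 counts in all libraries. The fibroblast list of 6 genes summed to 48.1 to 52.3 CPM with vector, 24.4 to 26.0 with plasmid, 11.5 to 12.02 in parental and 4.43 to 5.73 in resistant libraries. Its collagens moved in opposite directions: COL3A1 stood at 45.9, 18.2, 0.0558 and 0.387 CPM in these groups and COL1A1 at 4.05, 6.89, 11.7 and 4.67 CPM, while DCN, LUM and COL1A2 had at most 4 counts in any group. Whether this bears on the factors was not tested.

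The 2 experiments moved the factors differently. With the ITGB4 plasmid 6 of 10 rose and 3 fell, led by KLF4 (2.62-fold higher), GRHL3 (1.96-fold higher) and SOX2 (2.76-fold lower). In the resistant line 9 of 10 were lower and 0 higher, led by SOX2 (1.78-fold lower) and FOXA1 (1.75-fold lower). A gene was called changed at an adjusted p under 0.05 by edgeR's quasi-likelihood test, adjusted over all genes tested. By that rule 72.2% of 16950 genes were called with the plasmid, 36.5% higher and 35.7% lower, and 54.5% of 16875 genes in the resistant line, 26.8% higher and 27.7% lower, so a call by itself sets no factor apart. The median size of a factor's change, 0.34 on the log2 scale with the plasmid and 0.36 in the resistant line, lay close to that of all genes tested, 0.39 and 0.36. The shared direction of 9 factors in the resistant line stands beside the 27.7% of genes called lower, and the set as a whole was not tested.

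**Figure D1:**
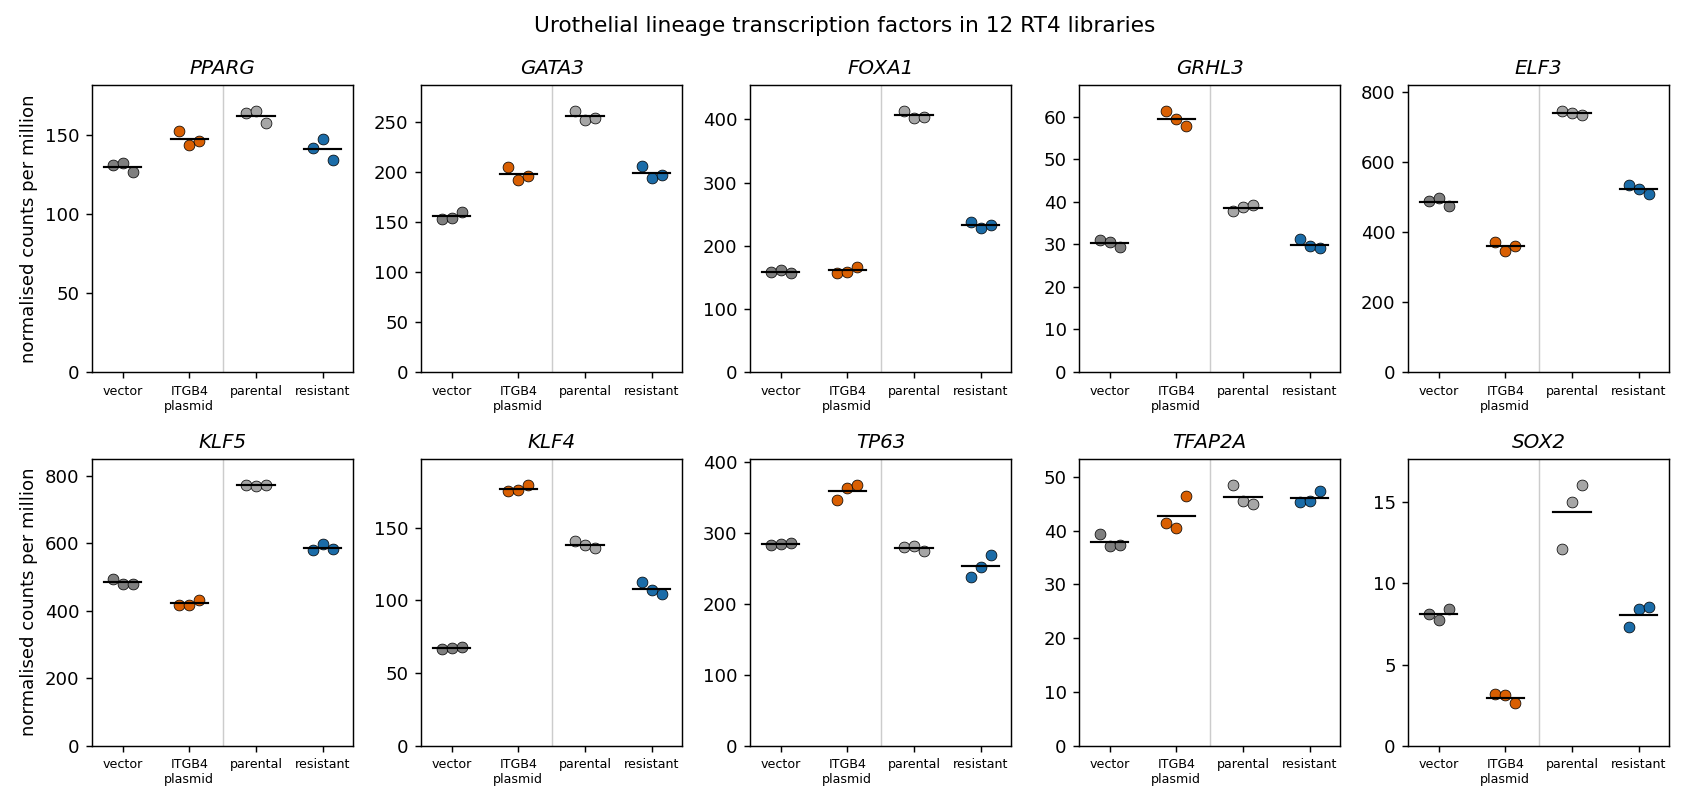
Normalised CPM (vertical axes, from 0) of the 10 factors in each of 12 libraries, with vector and ITGB4 plasmid left and parental and resistant right of the grey line; points are libraries and bars are group means. KLF4 and GRHL3 are higher with plasmid and lower in resistant cells, SOX2 is lower in both, and the FOXA1 points of vector and plasmid overlap.

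Because KLF4, GRHL3 and SOX2 made the largest moves with the plasmid, the DNA just upstream of a RefSeq start of each is shown. It reads 5′ to 3′ on the strand of the gene, from RefSeq on GRCh38.p14 and without bases in annotated exons. Capitals mark the letters GGGCGG or CCACCC, on either strand, which are core letters bound by KLF and SP zinc-finger factors such as KLF4 and KLF5. The KLF4 stretch is chr9:107489770-107490019 (minus strand), the GRHL3 stretch chr1:24319107-24319321 (plus) and the SOX2 stretch chr3:181711675-181711923 (plus).
KLF4: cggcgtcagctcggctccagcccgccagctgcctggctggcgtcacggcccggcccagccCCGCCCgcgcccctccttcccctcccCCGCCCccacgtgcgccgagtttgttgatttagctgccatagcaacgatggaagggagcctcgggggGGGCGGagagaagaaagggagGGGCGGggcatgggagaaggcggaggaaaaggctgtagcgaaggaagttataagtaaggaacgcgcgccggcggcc
GRHL3: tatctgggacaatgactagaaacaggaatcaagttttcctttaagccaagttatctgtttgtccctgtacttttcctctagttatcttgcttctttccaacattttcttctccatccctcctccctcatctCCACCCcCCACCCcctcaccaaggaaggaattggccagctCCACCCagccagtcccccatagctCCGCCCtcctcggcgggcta
SOX2: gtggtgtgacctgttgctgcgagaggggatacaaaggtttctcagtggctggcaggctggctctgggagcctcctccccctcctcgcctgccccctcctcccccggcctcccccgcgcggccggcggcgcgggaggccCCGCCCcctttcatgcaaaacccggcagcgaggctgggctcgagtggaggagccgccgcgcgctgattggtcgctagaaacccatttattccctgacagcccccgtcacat

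The KLF4 stretch held 4 matches to GGGCGG and 0 to CCACCC, GRHL3 1 and 3, and SOX2 1 and 0. Among 35116 RefSeq windows of 250 bases before a start, 42.6% held GGGCGG and 31.3% held CCACCC, so such matches are common, and KLF4 and SOX2 are rich in G and C (69.2% and 68.7% of bases, against 51.2% for GRHL3). Letters of other families were also present. The 250-base window of this GRHL3 start held the GATA letters AGATAA 2 times and the SOX letters ACAATG 1 time. The KLF4 window held the ETS letters GGAAGT and the AP-2 letters GCCNNNGGC 1 time each. In the SOX2 window the AP-2 letters and the PPAR half-site AGGTCA occurred 1 time each. Windows with at least 1 match made up 9.17% for AGATAA, 9.29% for ACAATG, 19.5% for GGAAGT, 19.8% for GCCNNNGGC and 12.1% for AGGTCA. Another RefSeq start of GRHL3, at 24323040, is not shown, and its 250-base window held CCACCC 1 time and no GGGCGG. A match describes letters only and was not tied to binding of any factor.

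PPARG, the luminal nuclear receptor, moved little and in opposite directions. It lay at 131, 132 and 127 CPM in the vector libraries and 152, 143 and 146 CPM with plasmid, with no overlap. The log2 fold change was 0.18 ± 0.031 (adjusted p = 5.94e-05), where ± is an approximate standard error, the size of the change over the root of its F statistic. In the resistance experiment the parental libraries were at 164, 165 and 157 CPM and the resistant ones lower at 142, 147 and 134 CPM (log2 -0.20 ± 0.046, adjusted p = 0.00132). That call was lost when library sizes alone or upper-quartile factors did the scaling (log2 -0.04 and -0.09, adjusted p = 0.533 and 0.0884). PPARG (ENSG00000132170) lies on chromosome 3 from 12287368 to 12434356, plus strand. All gene positions here are those of GENCODE 29 on GRCh38, where the 10 factors are protein-coding.

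GATA3, a luminal zinc-finger factor (chromosome 10, 8045378 to 8075203, plus strand), followed PPARG with larger steps. Vector libraries lay at 153, 154 and 160.3 CPM and plasmid libraries at 205, 192 and 195 CPM, a 1.27-fold rise (log2 0.34 ± 0.031, adjusted p = 2.97e-08). Parental libraries lay at 261, 252 and 254 CPM and resistant libraries at 206, 194 and 197 CPM, 1.29-fold lower (log2 -0.36 ± 0.041, adjusted p = 7.61e-07). Every plasmid library was above every vector library, and every resistant library below every parental one.

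FOXA1, the forkhead partner of the pair (chromosome 14, 37589984 to 37596059, minus strand), moved in the resistant line. Parental libraries stood at 413, 403 and 404 CPM and resistant libraries at 238, 228 and 232 CPM (log2 -0.81 ± 0.038, adjusted p = 8.63e-12). With plasmid FOXA1 was at 157, 159 and 167 CPM, overlapping the vector libraries at 158, 161 and 156 CPM. The change there was 0.02 on the log2 scale with an approximate 95% interval of -0.04 to 0.09 (adjusted p = 0.501), so a rise or fall within that interval was not resolved. The approximate intervals here cover the spread between these libraries only.

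GRHL3, a grainyhead factor needed for terminal differentiation of umbrella cells (chromosome 1, 24319322 to 24364482, plus strand), rose with the plasmid. It lay at 31.0, 30.6 and 29.4 CPM with vector and at 61.3, 59.5 and 57.8 CPM with plasmid (log2 0.97 ± 0.039, adjusted p = 7.92e-13). In the resistance experiment it lay at 37.8, 38.8 and 39.3 CPM in parental and 31.2, 29.5 and 29.1 CPM in resistant libraries (log2 -0.37 ± 0.063, adjusted p = 9.59e-05). The groups did not overlap in either experiment.

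ELF3, an epithelial ETS factor (chromosome 1, 202007945 to 202017188, plus strand), was lower in both experiments. It fell from 490.0, 497 and 475 CPM to 373, 347 and 361 CPM with the plasmid (log2 -0.44 ± 0.029, adjusted p = 5.84e-10). In the resistant line it stood at 535, 524 and 510.1 CPM against 747, 742 and 735 CPM (log2 -0.50 ± 0.035, adjusted p = 1.56e-09). ELF3 shares 664 exon bases with its antisense gene ELF3-AS1, which had 1321 counts over the vector libraries, 1675 with plasmid, 5149 in parental and 4570 in resistant libraries. The same-strand gene AL691482.3 also shares 664 exon bases with ELF3 and had 875, 785, 725 and 403 counts in those groups. Counts of the overexpression table were taken without strand, so reads of the shared bases cannot be told apart.

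KLF5, a Krüppel-like zinc-finger factor of proliferating epithelium (chromosome 13, 73054976 to 73077542, plus strand), was also lower in both. Vector libraries were at 493, 479 and 479.6 CPM and plasmid libraries at 416, 416 and 433 CPM (log2 -0.20 ± 0.025, adjusted p = 2.45e-06). Parental libraries were at 773, 769 and 771 CPM and resistant libraries at 579, 597 and 583 CPM (log2 -0.39 ± 0.033, adjusted p = 2.24e-08).

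KLF4, its relative with roles in epithelial differentiation (chromosome 9, 107484852 to 107490482, minus strand), took the opposite course with the plasmid. It lay at 66.5, 67.4 and 68.2 CPM with vector and at 175, 176 and 179 CPM with plasmid (log2 1.39 ± 0.029, adjusted p = 1.1e-16), a change above that of 96.2% of the genes tested. Resistant libraries were lower, at 113, 107 and 104 CPM against 140.5, 138 and 136 CPM in parental cells (log2 -0.36 ± 0.045, adjusted p = 3.59e-06).

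TP63, the p53 relative of basal and intermediate cells (chromosome 3, 189631416 to 189897279, plus strand), rose 1.26-fold with the plasmid, from 284, 284 and 286 CPM to 346, 363 and 368 CPM (log2 0.34 ± 0.027, adjusted p = 7.13e-09). Gene counts do not separate its full-length from its N-terminally shortened isoforms. In the resistance experiment it stood at 279.8, 282 and 274 CPM in parental and 238, 252 and 269.6 CPM in resistant libraries, with no overlap but with resistant replicate 3 close to the parental range. The change was -0.14 ± 0.045 on the log2 scale (adjusted p = 0.0152), and -0.09 without resistant replicate 1 (adjusted p = 0.0370). The call was lost without parental library a (adjusted p = 0.0526), without parental library b (0.0605) and without resistant replicate 2 (0.0579). It was also lost with upper-quartile factors (log2 -0.03, adjusted p = 0.574) and turned direction with library sizes alone (log2 0.03, adjusted p = 0.662).

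TFAP2A, the AP-2 alpha factor of basal and squamous epithelia (chromosome 6, 10393186 to 10419659, minus strand), was at 39.3, 37.1 and 37.3 CPM with vector and slightly higher at 41.3, 40.6 and 46.4 CPM with plasmid (log2 0.18 ± 0.050, adjusted p = 0.00352). Plasmid replicate 3 was the highest, and without it the change was 0.12 (adjusted p = 0.0441). In the resistance experiment the groups overlapped, with 48.5, 45.4 and 45.0 CPM in parental and 45.3, 45.6 and 47.4 CPM in resistant libraries. The log2 change was -0.01 with an approximate 95% interval of -0.13 to 0.12 (adjusted p = 0.924), and with library sizes alone it was 0.16 and called higher (adjusted p = 0.0299). TFAP2A shares 941 exon bases with TFAP2A-AS2 and 438 with TFAP2A-AS1 on the opposite strand. Those antisense genes had 164 and 106 counts over the vector libraries and 53 and 45 with plasmid.

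SOX2, a high-mobility-group factor of stem-like and squamous cells (chromosome 3, 181711924 to 181714436, plus strand), had the lowest CPM of the 10 in every group and fell in both experiments. It had 214, 223 and 285 counts in the vector libraries and 71, 77 and 82 with plasmid, or 8.14, 7.76 and 8.43 CPM against 3.19, 3.10 and 2.62 CPM (log2 -1.46 ± 0.10, adjusted p = 1.12e-09). Parental libraries lay at 12.1, 15.01 and 16.1 CPM and resistant libraries at 7.32, 8.41 and 8.52 CPM (log2 -0.83 ± 0.12, adjusted p = 1.05e-05). Parental library a was the lowest of its group and still above every resistant library. SOX2 lies within the span of SOX2-OT on the same strand, shares 0 exon bases with it in GENCODE 29, and SOX2-OT had 23, 15, 64 and 32 counts over the vector, plasmid, parental and resistant libraries.

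**Figure D2:**
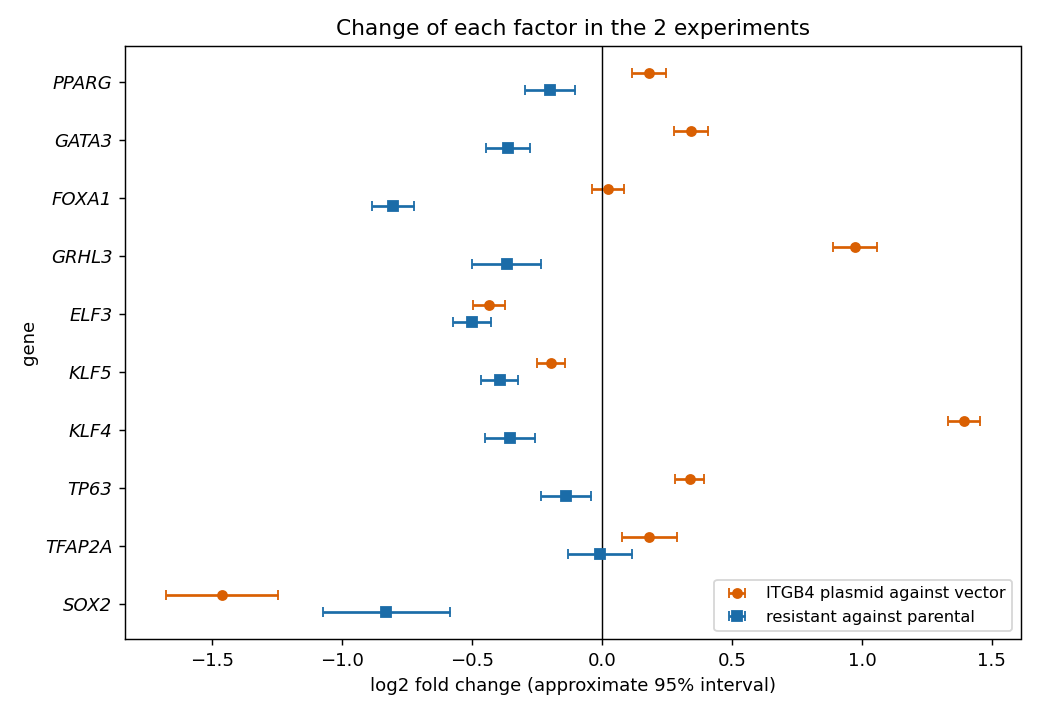
Log2 fold change (horizontal axis) of each factor with its approximate 95% interval, orange circles for ITGB4 plasmid against vector and blue squares for resistant against parental, 3 libraries per group. The blue squares lie at or left of 0 for the 10 factors under TMM scaling, while the orange circles run from SOX2 at -1.46 to KLF4 at 1.39.

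A joint fit of the 12 libraries, over 18516 genes of both tables, tested whether a factor's change differed between the experiments. The contrast was the change with plasmid minus the change in the resistant line. It was called for 8 of 10 factors, positive for 7 of them and negative for SOX2. Of all genes 61.8% were called, 30.2% positive and 31.6% negative. A positive contrast need not mean a rise with plasmid: KLF5 was lower in both experiments, and FOXA1 was not called with plasmid. The difference was largest for KLF4 (log2 1.72 ± 0.052, adjusted p = 1.08e-16) and GRHL3 (1.32 ± 0.069, adjusted p = 9.83e-13), followed by FOXA1 (0.80 ± 0.046, adjusted p = 4.65e-12) and GATA3 (0.68 ± 0.050, adjusted p = 2.6e-10). TP63 differed by 0.45 ± 0.054 (adjusted p = 3.63e-07), PPARG by 0.36 ± 0.056 (adjusted p = 1.34e-05), SOX2 by -0.65 ± 0.17 (adjusted p = 0.00226) and KLF5 by 0.17 ± 0.041 (adjusted p = 0.00105). The KLF5 call was lost with library sizes alone (-0.0066, adjusted p = 0.907) and with upper-quartile factors (0.026, adjusted p = 0.599). ELF3 was not called, at 0.04 with an approximate 95% interval of -0.05 to 0.14 (adjusted p = 0.429), but with library sizes alone it was -0.14 and called (adjusted p = 0.0102), and with upper-quartile factors -0.10 (adjusted p = 0.0604). TFAP2A was at 0.16, with an interval of 0.00067 to 0.32 and adjusted p = 0.0759, and it was called when any of 6 single libraries was left out: vector replicate 1, plasmid replicate 1 or 2, parental library b or c, or resistant replicate 3 (adjusted p = 0.0252 to 0.0484).

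Scaling mattered in the resistance experiment. With library sizes alone the median of all genes rose by 0.16 on the log2 scale and with upper-quartile factors by 0.11, and higher genes made up 67.8% and 61.6% of those called, against 49.1% with TMM. Factors called lower numbered 7 under each, where 3111 and 3584 of the 16875 genes tested were called lower. With library sizes alone the change of GATA3 was -0.20, of GRHL3 -0.20, of KLF4 -0.19 and of KLF5 -0.23, each under the TMM value by over 1.5 times and still called (adjusted p = 0.000406, 0.0110, 0.00143 and 1.32e-05). Relative to the median of all genes, TP63 lay at -0.16 and PPARG at -0.22 under both of these scalings, TFAP2A at -0.02, and FOXA1 at -0.82. A change of scaling shifts all genes by nearly the same amount, so values relative to the median stay alike by construction. In the difference between the experiments, higher genes made up 48.8% of those called with TMM, 37.9% with library sizes alone and 39.8% with upper-quartile factors. KLF4, GRHL3, FOXA1, GATA3, TP63, PPARG and SOX2 stayed called in the same direction there under both.

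Ratios of raw counts within a library do not depend on scaling, and 5 pairs, chosen after their values were seen, were compared without a test. The KLF4 to KLF5 ratio was 0.135 to 0.142 in the vector libraries and 0.414 to 0.423 with plasmid, but 0.177 to 0.182 in parental and 0.179 to 0.195 in resistant libraries, which overlap. The GRHL3 to ELF3 ratio went from 0.0615 to 0.0633 with vector to 0.160 to 0.172 with plasmid, and from 0.0506 to 0.0535 in parental to 0.0563 to 0.0583 in resistant libraries. The GATA3 to FOXA1 ratio was higher in both comparisons, at 0.955 to 1.02 against 1.17 to 1.30, and at 0.627 to 0.631 against 0.845 to 0.867. The SOX2 to TP63 ratio was lower in both, at 0.0273 to 0.0295 against 0.00711 to 0.00920, and at 0.0433 to 0.0586 against 0.0307 to 0.0334. The PPARG to TP63 ratio was 0.442 to 0.466 with vector and 0.394 to 0.439 with plasmid, and it overlapped between parental (0.573 to 0.585) and resistant libraries (0.498 to 0.595).

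**Figure D3:**
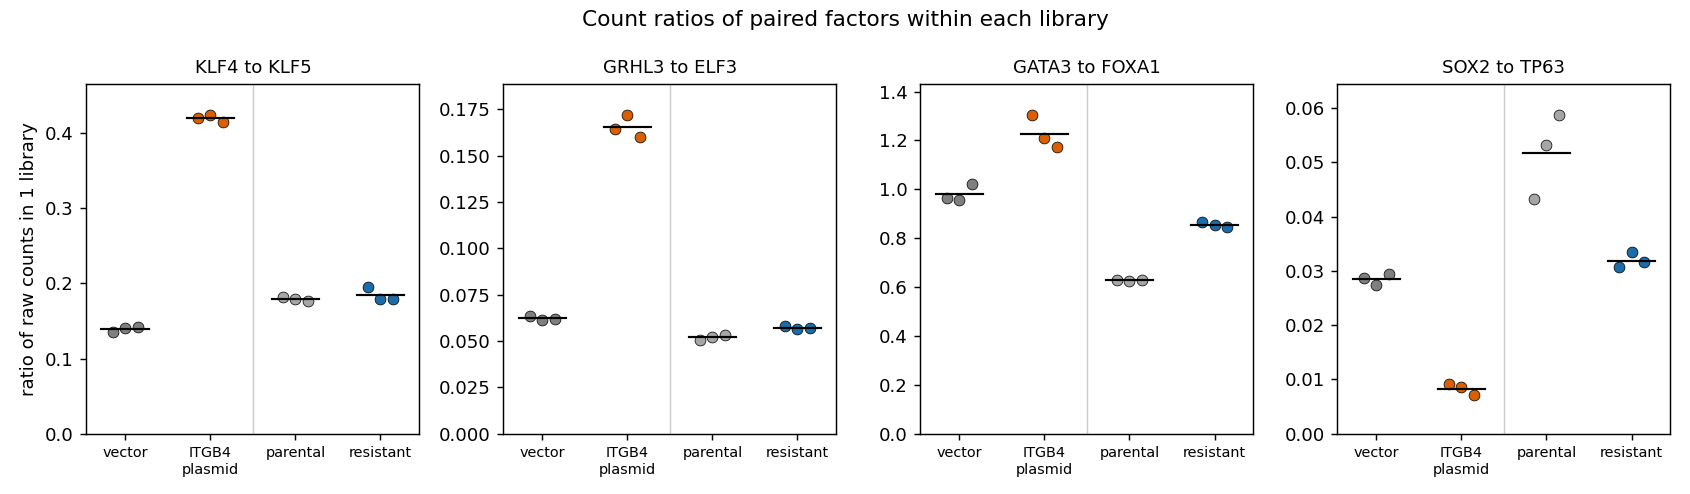
Ratio of raw counts of 2 factors within each library (vertical axes, from 0) for 4 pairs; points are libraries, bars are group means, and the grey line separates the experiments. The KLF4 to KLF5 points with plasmid, 0.414 to 0.423, lie above all others, and the SOX2 to TP63 points are lower in the second group of each experiment.

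To rank the factors against each other, CPM were divided by the kilobases of exon in GENCODE 29, which counts every annotated isoform and so understates genes with long rare ones. By this measure KLF5 was highest in every group, at 124 ± 2.04 with vector, 108 ± 2.50 with plasmid, 198 ± 0.438 in parental and 151 ± 2.46 CPM per kb in resistant cells. Its lead over ELF3 rests largely on exon length, 7.191 kb for ELF3 and 3.893 kb for KLF5. Before the division ELF3 and KLF5 stood at 487 and 484 CPM with vector and 360 and 422 CPM with plasmid. In parental cells they stood at 741 and 771 CPM and in resistant cells at 523 and 586 CPM. In the vector group the order below it was ELF3 (67.7 CPM per kb), GATA3 (45.3), FOXA1 (39.9), TP63 (38.2), PPARG (28.6), KLF4 (18.4), GRHL3 (7.69), TFAP2A (4.58) and SOX2 (3.23), and no neighbours overlapped. With plasmid GATA3 (57.5) stood above ELF3 (50.1), and KLF4 (48.3) moved from place 7 to place 4. There ELF3 overlapped KLF4, and KLF4 overlapped TP63 (48.2). In parental cells ELF3 (103) and FOXA1 (102) overlapped, as did KLF4 (37.8) and TP63 (37.4), and SOX2 (5.73) and TFAP2A (5.60). In resistant cells FOXA1 (58.5) overlapped GATA3 (57.9), and TP63 (34.0), PPARG (31.1) and KLF4 (29.5) overlapped in turn.

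**Figure D4:**
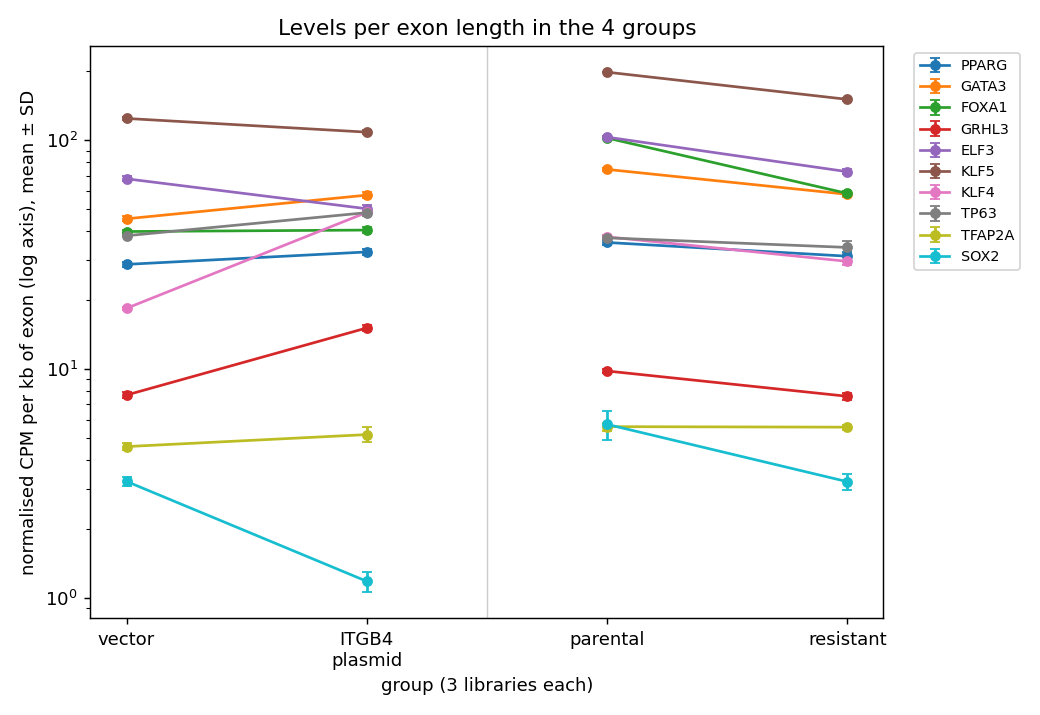
Level of each factor in CPM per kb of exon (log axis) by group, as mean ± SD of 3 libraries, with lines joining the groups of 1 experiment. Per kb of exon, KLF5 is on top in all 4 groups, and KLF4 climbs from 18.4 to 48.3 CPM per kb with the plasmid. The lead of KLF5 over ELF3 rests largely on the exon lengths used.

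The 2 control groups, both RT4, differed in level. FOXA1 stood at 159 ± 2.28 CPM with vector and 407 ± 5.79 in parental cells, KLF4 at 67.4 ± 0.829 and 138 ± 2.18, GATA3 at 156 ± 4.02 and 256 ± 4.50, and ELF3 at 487 ± 11.4 and 741 ± 6.09, whereas TP63 was at 285 ± 1.40 and 279 ± 4.24 CPM. The tables came from separate experiments with separate media and possibly separate counting, so this is a description without a test. Pearson's r of log2 CPM over 11604 genes was 0.806 to 0.809 for a parental with a vector library, against 0.996 for parental libraries with each other.

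Over the 12 libraries, centred within each experiment, GRHL3 and KLF4 were the most alike pair of factors (Pearson r = 0.99), followed by ELF3 and KLF5 (0.96). KLF4 and SOX2 were the most opposed (-0.72). Among 11367 other protein-coding genes, the closest to KLF4 were PLEKHA4, DHRS9 and PLAAT4, and the closest to GRHL3 were ACHE, CHAC1 and SP6 (r = 0.998 to 0.999 and 0.997 to 0.998). GATA3 was closest to CLSTN3, SLC16A5 and STK10 (0.991 to 0.994), FOXA1 to CXCL6, INSR and AKR1B1 (0.994 to 0.997), ELF3 to PGLYRP2, TSKU and LRATD1 (0.993 to 0.994), and KLF5 to the cell-division genes CCNB2 and CENPF and to BTRC (0.993 to 0.994). TP63 was closest to ATP13A3, THOC2 and CHD1 (0.988 to 0.991), SOX2 to PIEZO2, RANBP9 and VSIG10 (0.986 to 0.987), PPARG to FAM161B, SLC37A2 and YWHAH (0.961 to 0.970), and TFAP2A to MORC2, IQCC and ZSCAN21 (0.833 to 0.852). Centring leaves mainly the group difference of each experiment behind the 12 points, so such values are easily high. With GRHL3 765 genes had r over 0.95 and with KLF4 734, against 12 with PPARG and 0 with TFAP2A. All these r values are descriptions.

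The cofactors of PPARG were called higher in 8 and lower in 6 of 16 tested with the plasmid, with a median log2 change of 0.08. With upper-quartile factors 6 were higher and 7 lower (median 0.02), and the median was 0.04 without plasmid replicate 1 and 0.05 without vector replicate 2. NRIP1, a corepressor of nuclear receptors, rose from 89.5 ± 2.14 to 192 ± 9.07 CPM, and PPARD, a related receptor, from 91.4 ± 3.10 to 153.9 ± 4.45 CPM. PPARGC1A, a coactivator, fell from 5.80 ± 0.424 to 1.13 ± 0.189 CPM. The resistant line had 12 of 16 lower and 1 higher, with a median of -0.44 (-0.27 with library sizes alone, where 11 were lower and 2 higher). NRIP1 fell there from 239 ± 5.64 to 102 ± 15.2 CPM, and the coactivators NCOA3 and NCOA2 from 310.0 ± 10.3 to 173 ± 14.2 and from 110.3 ± 4.45 to 65.7 ± 1.28 CPM. The median of all genes tested was 0.0017 with the plasmid and 0.018 in the resistant line. Called higher were 36.5% of all genes and lower 35.7% with the plasmid, and 26.8% and 27.7% in the resistant line. With library sizes alone the resistant-line median of all genes was 0.18, with 3111 of 16875 genes lower and 6548 higher. These values apply to the lists below as well.

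Genes listed as PPARG or lipid targets, not all of them lipid genes, were mixed in both experiments. With the plasmid 6 were higher and 7 lower of 15 (median -0.03), where 36.5% of all genes were higher and 35.7% lower. In the resistant line 8 were higher and 6 lower (median 0.53), against 26.8% and 27.7% of all genes. The median with the plasmid was -0.16 without vector replicate 1 or without plasmid replicate 2, -0.08 without plasmid replicate 1 and -0.02 without plasmid replicate 3. ANGPTL4, a secreted lipase inhibitor, rose from 13.4 ± 0.717 to 82.8 ± 4.93 CPM with the plasmid, and PLIN2, a lipid-droplet coat protein, from 226 ± 1.67 to 463 ± 12.4 CPM. FABP4, a fatty acid carrier, fell from 1072 ± 14.9 to 594 ± 7.96 CPM. Between parental and resistant cells PLIN2 rose from 515 ± 4.33 to 779 ± 22.6 CPM, while TMPRSS2, a membrane protease, fell from 105 ± 4.30 to 54.3 ± 3.75 CPM. PPARG itself was lower in that experiment (log2 -0.20 with TMM), a call lost with library sizes alone or upper-quartile factors. A link between PPARG and these genes was not tested.

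Other luminal and epithelial transcription factors were mixed with the plasmid, 11 higher and 10 lower of 23, with a median near 0 that took either sign over the alternatives (-0.062 to 0.074). GRHL1, a relative of GRHL3, rose from 91.7 ± 0.956 to 192 ± 1.12 CPM. KLF6 fell from 315 ± 0.780 to 115 ± 1.81 CPM and ZNF750, a regulator of epidermal differentiation, from 70.4 ± 1.52 to 22.5 ± 1.14 CPM. Resistant cells had 18 of 23 lower and 2 higher (median -0.46, and -0.30 with library sizes alone, where 13 were lower and 4 higher). Among all genes 27.7% were lower and 26.8% higher there with TMM. With library sizes alone 3111 of 16875 genes were lower and 6548 higher, and the median of all genes was 0.18. Those called higher numbered 0 without parental library a or c and 1 without resistant replicate 1 or 2. There ZNF750 fell from 48.2 ± 2.44 to 21.4 ± 1.55 CPM and OVOL1 from 66.1 ± 1.36 to 34.2 ± 2.03 CPM.

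Of 15 basal, squamous and mesenchymal factors tested, 9 fell and 5 rose with the plasmid (median -0.26). Among all genes 35.7% were called lower and 36.5% higher with the plasmid, and 27.7% and 26.8% in resistant cells. SNAI2, a zinc-finger repressor of epithelial-mesenchymal transition, fell from 118 ± 1.55 to 22.7 ± 0.819 CPM, MYC from 329 ± 3.82 to 129.8 ± 2.50 CPM and SOX4 from 271 ± 4.79 to 123 ± 2.70 CPM. In resistant cells 6 were higher and 4 lower of 16, with a median of -0.02 that became 0.14 with library sizes alone, 0.09 with upper-quartile factors, 0.03 with a filter at 1 CPM, 0.05 without parental library b or resistant replicate 3, and 0.14 without parental library c, and was -0.08 without parental library a. SOX7 rose there from 10.2 ± 0.689 to 19.5 ± 0.510 CPM, and the AP-1 subunits FOSL1 and FOSL2 fell from 96.5 ± 1.31 to 60.3 ± 4.42 and from 667 ± 14.4 to 510.4 ± 20.5 CPM. Of 10 neuroendocrine factors 4 were tested. With the plasmid ONECUT2 (127 ± 4.55 to 53.3 ± 1.14 CPM) and NEUROD4 (9.26 ± 0.409 to 0.0943 ± 0.065 CPM, 826 against 7 counts) were lower. PROX1 was called higher (1.16 ± 0.033 to 1.57 ± 0.218 CPM), but the call was lost with library sizes alone, upper-quartile factors, DESeq2, no low-count filter, the replicate block, the fit of all 12 libraries, and without vector replicate 1, 2 or 3 or plasmid replicate 2. Resistant cells had more NEUROD4 and less POU2F3: NEUROD4 rose from 0.932 ± 0.282 to 2.92 ± 0.768 CPM and POU2F3, at 0.740 ± 0.189 against 0.292 ± 0.159 CPM, was called lower. The POU2F3 call was lost without parental library b or c or resistant replicate 1, and a filter at 1 CPM removed the gene before testing.

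The lists of luminal and of basal differentiation genes, chosen by name, each held genes called higher and genes called lower in both experiments. Among all genes 36.5% were called higher and 35.7% lower with the plasmid, and 26.8% and 27.7% in the resistant line. Of luminal genes, 11 were higher and 6 lower of 20 with the plasmid (median 0.21, and 0.12 with a filter at 1 CPM), and 9 higher and 8 lower in the resistant line (median 0.06). The latter median was 0.22 with library sizes alone and 0.16 with upper-quartile factors, where 10 were higher and 7 lower, and it turned to -0.036 without resistant replicate 1, while leaving out any other single library gave 0.099 to 0.14. UPK1B, a uroplakin of the umbrella cell surface, went from 54.8 ± 0.831 to 147 ± 3.01 CPM with the plasmid and from 70.3 ± 2.17 to 28.7 ± 1.69 CPM in the resistant line. FGFR3, a receptor kinase of luminal papillary tumours, went the other way in each, from 256 ± 1.15 to 126 ± 5.21 CPM and from 78.3 ± 2.10 to 192 ± 7.10 CPM. KRT18, a simple-epithelial keratin, rose from 308 ± 5.06 to 499.7 ± 12.3 CPM with the plasmid, and CYP4B1, a monooxygenase, from 89.8 ± 2.94 to 260.0 ± 11.3 CPM in the resistant line. Of basal and squamous genes 14 were higher and 4 lower of 19 with the plasmid (median 0.54), among them KRT6A (1.27 ± 0.202 to 99.9 ± 5.41 CPM, with reads that KRT6B and KRT6C can share), SPRR1A (1.93 ± 0.165 to 19.5 ± 1.18 CPM), a cornified envelope protein, and COL17A1 (215 ± 4.62 to 442 ± 2.22 CPM), a hemidesmosome collagen. Resistant cells had 11 lower and 5 higher of 20 (median -0.39, and -0.22 with library sizes alone), with SPRR1A at 31.0 ± 1.44 against 144 ± 4.30 CPM and the laminin chain LAMB3 at 459 ± 13.4 against 814 ± 12.2 CPM.

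**Figure D5:**
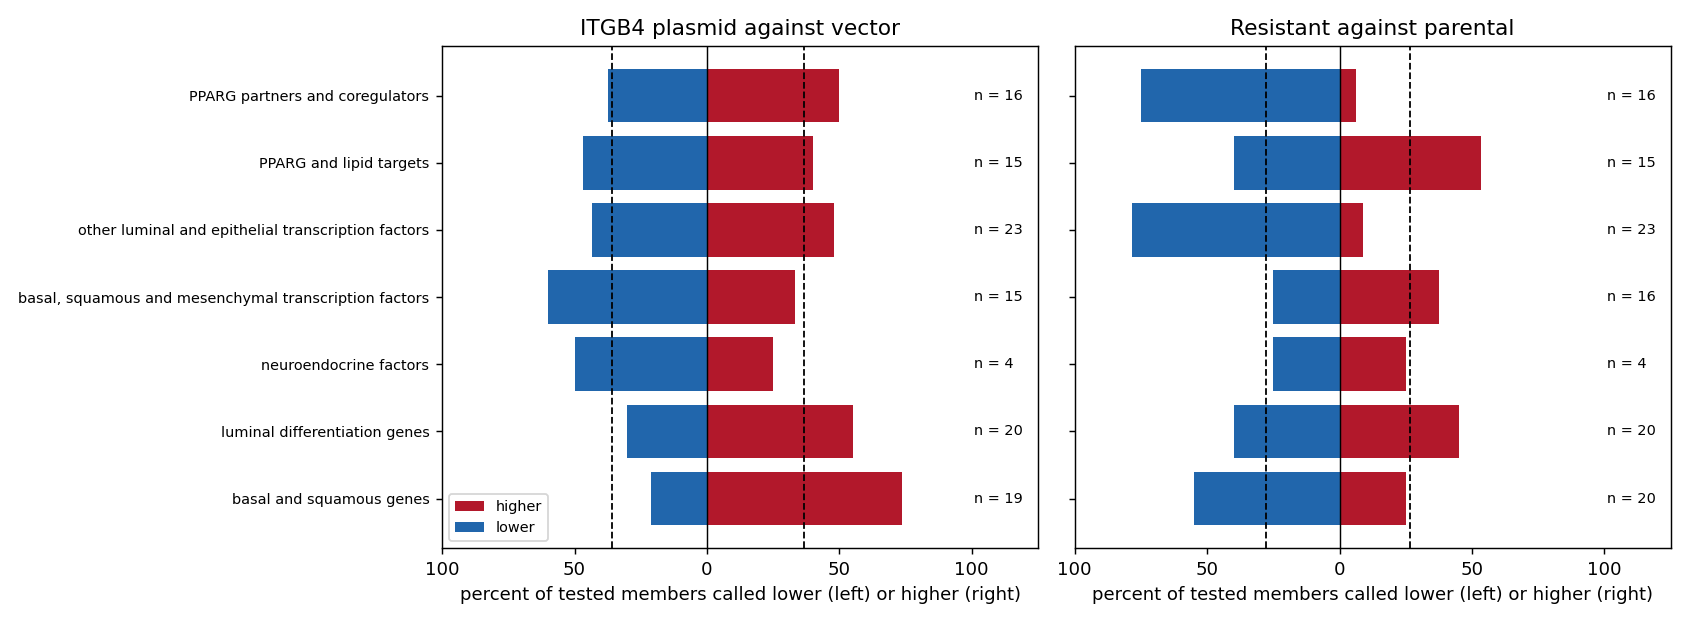
Percent of tested genes of 7 related lists (rows, with the number tested) called lower (blue, left) or higher (red, right) in each experiment; dashed lines mark the percent of all genes called lower and higher. In the resistant line the bars of PPARG cofactors (12 of 16) and of other luminal and epithelial factors (18 of 23) reach farthest left.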

How the data were processed

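Per the labels' protocols, the library kit used on RT4 total RNA keeps strand. The authors deposited 2 tables of raw counts per gene. Per the file headers, the overexpression counts are read pairs over exons from featureCounts v2.0.1 with Ensembl release 107 on GRCh38, with no strand option. The submitters' processing notes name hg38. Aligner, counter and strand setting of the resistance table: not given in the sources used here. Parental columns are headed NC. Their place beside the resistant columns led to the parental assignment, which is an inference, and they are called a, b and c. Nothing says that replicates were separate cultures, so p-values measure only how far these libraries spread, and that spread may be technical. Every pair of replicates differed beyond sampling noise (chi-square per degree of freedom 1.54 to 12.2).

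From the deposited counts, genes passing edgeR's filterByExpr were tested within each experiment in edgeR 4.0.16 (R 4.3.3), by quasi-likelihood with TMM scaling, and the procedure was tested on simulated data. Symbols came from a gene name table that held 61757 of 61860 and 62700 of 62700 identifiers. The factors and the 7 related lists (137 genes) were chosen with earlier results of these data known. Named from a list are its 3 called genes with the smallest p per experiment (some are not reported here), and for each factor the 3 genes with the highest correlation, with a mean of at least 1 CPM in both tables. As alternatives, DESeq2 1.42.0, limma-voom (limma 3.58.1), other scalings and low-count filters, a replicate block, a threshold of 1.5-fold, 1 fit over both experiments and leaving out each library were tried.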

Additional observations from a re-analysis of the deposited data

How the results depend on the processing

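Over 500 recomputed log2 changes of the 10 factors (3 comparisons, 22 kinds of setting), 458 kept direction and side of the threshold, 21 lost a call, 6 gained one and 15 turned direction. With a test for a change over 1.5-fold the overexpression experiment had 1880 genes higher and 1938 lower, with 2 factors higher (KLF4 and GRHL3) and 1 lower (SOX2), and the resistance experiment 1042 higher and 1065 lower, with 1 factor lower (FOXA1). These are fewer because the question is stricter. With library sizes alone 3111 genes were lower and 6548 higher in the resistance experiment, where 1 factor (TFAP2A) was higher. In the difference between experiments that scaling left 2 factors (SOX2 and ELF3) called with a negative contrast, as were 7250 of 18516 genes. The changes that turned direction were small. FOXA1 with the plasmid was -0.017 with library sizes alone, -0.041 with upper-quartile factors, -0.00156 without plasmid replicate 3 and up to 0.040 with another library left out. In the resistance experiment TP63 was 0.026 with library sizes alone, and TFAP2A was 0.16 with library sizes alone, 0.10 with upper-quartile factors, 0.0064 with a filter at 1 CPM, 0.0028 in the fit of all 12 libraries, and -0.031 to 0.024 when 1 library was left out. In the difference between experiments, library sizes alone gave -0.14 for ELF3 (adjusted p = 0.0102), -0.0066 for KLF5 and -0.017 for TFAP2A, and upper-quartile factors -0.10 for ELF3. The cause was not tested.

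The replicate block on the numbers of the titles left 6 factors higher and 3 lower with the plasmid, with 6105 genes higher and 5965 lower, and changed no call of a factor. Same-numbered libraries did not deviate together (r = -0.02, -0.02 and -0.01), so the numbers were not used as pairs. No paired analysis was possible for the resistance experiment because the parental columns carry no number tied to a sample. With 71 to 82 counts per plasmid library, SOX2 has the widest intervals of the 10.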
